A study of Mus musculus with 4 samples.

Results

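Germ cells depend on RNA-binding proteins that decide which of their mRNAs are translated, stored or destroyed, and 6 genes that encode such proteins are described here across the early mouse gonad. They are Dazl, Ddx4, Nanos2, Nanos3, Dnd1 and Elavl2, picked by gene symbol from 40999 listed features. Gonads came from wild-type C57BL/6J embryos at daily steps between embryonic days E11.5 and E14.5, and the libraries of all 4 stages mix XX and XY tissue, so the sexes cannot be told apart. Each pool held no fewer than 6 male gonads and 6 female gonads, taken from 2 litters, and gave a single library. The E11.5 pool was the whole genital ridge with its mesonephros, the embryonic kidney beside the gonad, whereas the mesonephros was dissected away from E12.5 on. Stage and presence of the mesonephros cannot be told apart in the first comparison.

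In the mouse, primordial germ cells reach the genital ridge before its sex is settled, then enter meiosis in the ovary or mitotic arrest in the testis. DND1 and NANOS3 are known for the survival of primordial germ cells, DAZL for their commitment to gamete formation, and NANOS2 for the male pathway, in which it represses meiosis. NANOS proteins act with Pumilio proteins and recruit the CCR4-NOT deadenylase, which shortens poly(A) tails, while DDX4, the mouse Vasa homolog, is an RNA helicase of germ granules and of the piRNA pathway. ELAVL2 belongs to the Hu family, which binds AU-rich elements, and is best known from neurons.

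Values are unique reads per gene. A level is given as TMM-scaled RPKM, that is reads per kilobase of exon and per unit of sequencing depth (the usual RPKM) after library sizes were corrected by the trimmed mean of M values (TMM). With 1 library per time point the differences have no replicate check and carry no p, and a gene was counted as different between libraries only at 2-fold or more. Intervals are exact 95% intervals and cover counting error only. In bulk tissue, fewer germ cells and less RNA per germ cell cannot be told apart. Libraries held 25593453 to 31752562 counts, and a count of 0 allows up to 3 counts. The E14.5 library stood apart: the 18S rRNA feature Rn18s-rs5 took 40.7% of its counts, against 1.03% to 9.06% in the other libraries. Total counts placed the median gene at a log2 fold change of -1.07 in E14.5 versus E13.5, and the deposited TPM, a length-corrected share of each library, placed it at -1.63, while TMM placed it at -0.01. How much of that shift goes with the rRNA alone was not tested. All 12 germ cell markers examined (Pou5f1, Nanog, Sox2, Sall4, Dppa3, Dppa4, Dppa5a, Tfap2c, Prdm1, Prdm14, Utf1 and Kit) had reads in every library.

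The promoters of 4 members are shown because they differ sharply in CG dinucleotides, where mammalian DNA methylation is placed (methylation itself was not measured). Each line gives 300 bases around a start site from RefSeq (GRCm38.p6), 5′ to 3′ on the strand of the gene, with every CG in capitals. The windows are chr17:50293571-50293870 on the minus strand for Dazl, chr13:112652261-112652560 on the minus strand for Ddx4, chr7:18987274-18987573 on the plus strand for Nanos2 and chr8:84176503-84176802 on the minus strand for Nanos3.
Dazl: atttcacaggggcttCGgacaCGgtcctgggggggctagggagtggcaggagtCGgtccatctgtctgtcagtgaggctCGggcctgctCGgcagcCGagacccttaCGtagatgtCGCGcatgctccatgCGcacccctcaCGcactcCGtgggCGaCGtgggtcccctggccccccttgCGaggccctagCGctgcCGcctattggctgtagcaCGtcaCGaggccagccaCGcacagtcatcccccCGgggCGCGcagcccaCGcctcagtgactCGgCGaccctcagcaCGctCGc
Ddx4: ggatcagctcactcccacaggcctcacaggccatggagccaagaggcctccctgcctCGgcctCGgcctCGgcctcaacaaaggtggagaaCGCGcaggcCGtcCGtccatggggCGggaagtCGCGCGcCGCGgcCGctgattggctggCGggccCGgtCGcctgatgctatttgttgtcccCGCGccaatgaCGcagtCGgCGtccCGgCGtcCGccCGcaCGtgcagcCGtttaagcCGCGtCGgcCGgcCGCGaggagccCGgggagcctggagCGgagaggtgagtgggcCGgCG
Nanos2: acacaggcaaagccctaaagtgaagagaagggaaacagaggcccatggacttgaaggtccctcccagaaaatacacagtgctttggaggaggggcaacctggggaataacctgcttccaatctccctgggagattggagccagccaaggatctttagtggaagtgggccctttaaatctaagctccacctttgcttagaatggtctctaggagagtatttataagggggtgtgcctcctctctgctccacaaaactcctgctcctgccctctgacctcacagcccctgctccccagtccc
Nanos3: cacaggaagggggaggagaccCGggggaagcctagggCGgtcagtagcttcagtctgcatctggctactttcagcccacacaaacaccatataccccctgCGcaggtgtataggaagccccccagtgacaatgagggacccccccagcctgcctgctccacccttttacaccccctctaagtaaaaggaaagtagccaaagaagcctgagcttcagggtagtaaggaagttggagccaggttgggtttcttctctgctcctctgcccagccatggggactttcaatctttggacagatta

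The Dazl window held 28 CG and the Ddx4 window 38, against a median of 7 over 32851 mouse promoters of the same length. As many CG as in Dazl stood in 14.2% of all promoters and as many as in Ddx4 in 4.95%. The Nanos2 window held 0 CG and the Nanos3 window 3. The Nanos3 window lies inside the wider feature counted as Nanos3, which extends upstream to 84184546. G and C made up 68.7% of the Dazl window, 72% of Ddx4, 53% of Nanos2 and 55.3% of Nanos3. Elavl2 has 6 listed start sites, whose windows held 10 to 27 CG. The window of Dnd1 is not reported here. 4 motifs were searched on both strands: the E-box CACGTG, the GC box GGGCGG, the TATA box TATAAA and the E2F motif TTCCCGC. The Ddx4 window had all but the TATA box, with the E-box 29 bases upstream of the start, GC boxes 138 and 36 bases upstream and the E2F motif 136 bases upstream, where it overlaps a GC box. The Nanos2 window had only a TATA box match, 33 bases upstream and on the strand opposite to the gene. The Nanos3 window had only a GC box, 216 bases upstream. The Dazl window had none of them. Over all promoters, 7.15% held the E-box, 35.7% the GC box, 13.6% the TATA box and 4.60% the E2F motif. A match describes these letters and does not show binding. Distances are from the RefSeq start sites used. The coding transcripts of GENCODE M21 begin further upstream for Nanos2 (18987400) and Ddx4 (112652475), and the matches of both genes lie inside those spans.

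From E11.5 to E12.5, Dazl, Ddx4, Dnd1 and Elavl2 were each at least 2-fold higher in the later library, while Nanos3 was not and Nanos2 had no reads in either. These are 4 of 5 members with reads, against 9.47% of the 20036 genes compared that were at least 2-fold higher and 9.59% that were at least 2-fold lower. The median log2 fold change of the 5 members was 2.41, against 0.00 for all genes compared.

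Dazl encodes a translational regulator that binds mRNAs near their 3′ ends, and lies on chromosome 17 at 50279393-50293620 (mm10, minus strand, 12 exon blocks). It had 53, 4555, 8230 and 3061 counts in order of age. Its level was 0.438 TMM-scaled RPKM in the first library, 41.1 in the second, 58.9 in the third and 46.1 in the last. The E11.5 library was the low one, and the later ones lay within a narrow band far above it. E12.5 was 93.6-fold higher than E11.5, a log2 fold change of 6.55 (6.16 to 6.97). The next step was small, at 0.52 (0.47 to 0.57), and E14.5 versus E13.5 gave -0.36 (-0.42 to -0.30).

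Ddx4, on chromosome 13 at 112598333-112652633 (minus strand, 23 exon blocks), had the same order of libraries. Its counts were 97, 1726, 2960 and 1176 from E11.5 to E14.5, and its level was 0.746, 14.49, 19.7 and 16.5 TMM-scaled RPKM. The first step was 19.4-fold, a log2 fold change of 4.28 (3.98 to 4.59), which was smaller than that of Dazl with no overlap of the intervals. Later steps were 0.44 (0.36 to 0.53) and -0.26 (-0.36 to -0.16).

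Dnd1, on chromosome 18 at 36763671-36766214 (minus strand, 4 exon blocks), encodes the partner of NANOS2 in repressing mRNAs. It had 90, 438, 538 and 331 counts, and levels of 1.79, 9.51, 9.26 and 12.0 TMM-scaled RPKM. E12.5 was 5.31-fold higher than E11.5, with a log2 fold change of 2.41 (2.08 to 2.75). The 3 later libraries stayed between 9.26 and 12.0, and no later step reached 2-fold. Wdr55, on the opposite strand, shares 38 bases of exon with Dnd1, and whether the counting used strand is not given in the sources used here. Wdr55 itself had 341, 345, 387 and 191 counts.

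Elavl2, on chromosome 4 at 91250763-91400063 (minus strand, 12 exon blocks), had 391, 1082, 1243 and 393 counts. Its level was 1.52, 4.60, 4.19 and 2.79 TMM-scaled RPKM. E12.5 was 3.02-fold higher than E11.5, with a log2 fold change of 1.60 (1.43 to 1.77), the smallest of these first steps. It was the member with the lowest E14.5 level relative to its own E13.5 level, 1.504-fold lower at a log2 fold change of -0.59 (-0.76 to -0.42). Because Hu family genes are expressed in neurons, 8 neuron markers (Elavl3, Elavl4, Tubb3, Stmn2, Phox2a, Dbh, Th and Prph) were read beside it. Their summed level was 17.5 TMM-scaled RPKM at E11.5, then 2.81, 4.03 and 6.23. At E12.5, 7 of 8 were at least 2-fold lower than at E11.5, against 9.59% of all genes. None of the 8 was at 0 in any library. Elavl2 was higher at E12.5 while these markers were lower, and their part in the E11.5 level of Elavl2 was not tested.

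Nanos3, on chromosome 8 at 84173730-84184546 (minus strand, 4 exon blocks), was the flattest member. It had 91, 59, 84 and 65 counts and levels of 1.11, 0.786, 0.887 and 1.44 TMM-scaled RPKM. Its log2 fold changes were -0.50 (-0.996 to -0.01), 0.17 (-0.32 to 0.68) and 0.70 (0.21 to 1.19) in the 3 consecutive comparisons, and none reached 2-fold. From E12.5 to E14.5 with TMM it was not the flattest, at 0.87 (0.35 to 1.41). The feature counted as Nanos3 is wider than its coding transcripts: 730 of its 2395 exonic bases, 30.5%, lie in those of GENCODE M21, and most of the rest lies upstream. The precursors of miR-181c and miR-181d lie inside the gene span and had 0 or 1 counts in each library. Where the reads fell within the feature was not analysed here, so the level of Nanos3 per length, and its place among the members, holds for the whole feature and not for the mRNA.

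Nanos2, a gene of 1 exon on chromosome 7 at 18987524-18988962 (plus strand), was the late member. Its 4 libraries had 0, 0, 12 and 75 counts in order of age. Its level was 0.211 TMM-scaled RPKM at E13.5 (0.109 to 0.368) and 2.77 at E14.5 (2.18 to 3.47), and the limits allowed by the zeros were 0.0609 at E11.5 and 0.0665 at E12.5. E13.5 was at least 3.09-fold above the E12.5 limit as counted, or 1.64-fold from the lower end of its counting interval, so counting error alone leaves its place past 2-fold unsecured. E14.5 was 12.97-fold above E13.5, a log2 fold change of 3.70 (2.83 to 4.73). Against E12.5, E14.5 was at least 39.7-fold higher as counted, or 32.8-fold from the lower end of its interval. Nanos2 is known as a gene of XY germ cells, and each level is an average over XX and XY tissue.

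**Figure D1:**
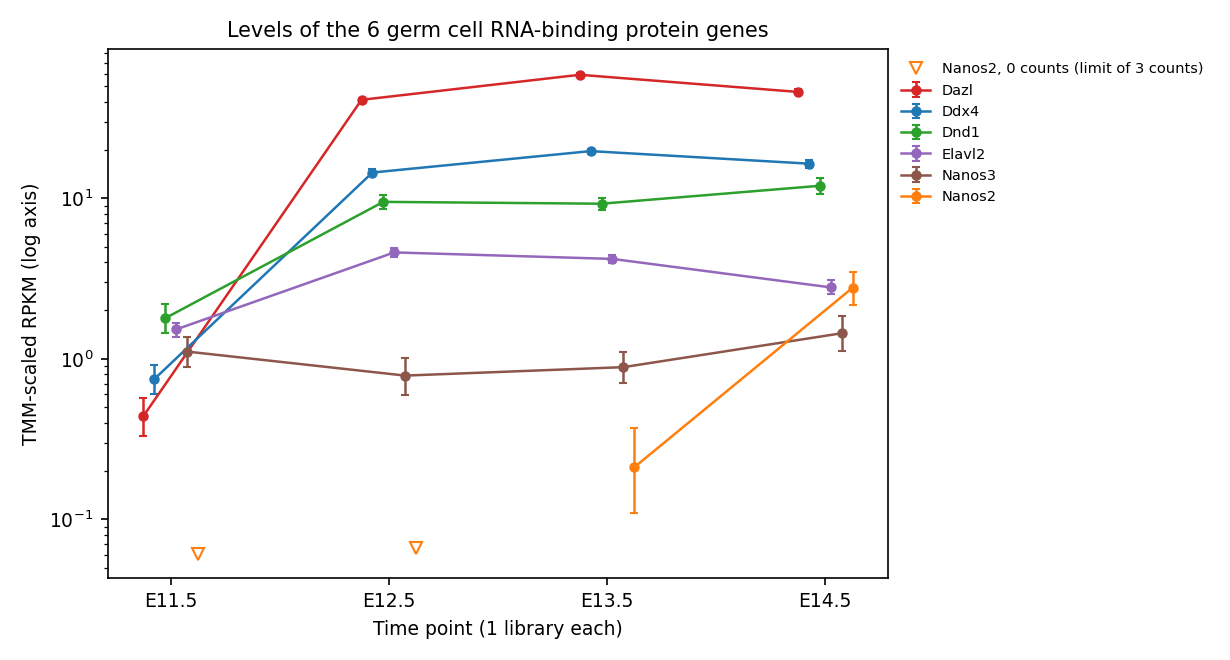
Level of each member by library, in TMM-scaled RPKM on a log axis, with 1 library per time point; bars are exact 95% counting intervals and open triangles mark the limit of 3 counts where Nanos2 had 0. Dazl goes from 0.438 at E11.5 to 41.1 at E12.5, Nanos3 stays between 0.786 and 1.44, and Nanos2 first has reads at E13.5.

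The order of the levels changed between E11.5 and E12.5. At E11.5 the order was Dnd1, Elavl2, Nanos3, Ddx4 and Dazl, with Nanos2 at 0, and the counting intervals of Dnd1 and Elavl2 overlapped, as did those of Nanos3 and Ddx4. At E12.5 and at E13.5 it was Dazl, Ddx4, Dnd1, Elavl2, Nanos3 and Nanos2, with no overlap between neighbours. At E14.5 Dazl, Ddx4 and Dnd1 kept their places, Elavl2 (2.79) and Nanos2 (2.77) did not differ beyond counting error, and Nanos3 was last. Dazl thus went from the lowest member with reads to the highest in 1 day.

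From E12.5 to E13.5, 1 of 6 members reached 2-fold, Nanos2, while 3.83% of all genes compared were at least 2-fold higher and 2.68% at least 2-fold lower (6.51% in all). The median log2 fold change of the members was 0.31. Dnd1 gave -0.04 (-0.22 to 0.15) and Elavl2 -0.13 (-0.25 to -0.02). From E13.5 to E14.5 it was again Nanos2 alone, with 7.12% of all genes at least 2-fold higher and 3.29% at least 2-fold lower (10.4% in all), and the median of the members was 0.06. Consecutive comparisons share a library, so they are not independent of each other. E14.5 set directly against E12.5 gave log2 fold changes of 0.16 (0.10 to 0.23) for Dazl and 0.18 (0.08 to 0.29) for Ddx4. The same comparison gave 0.87 (0.35 to 1.41) for Nanos3, 0.33 (0.12 to 0.54) for Dnd1 and -0.72 (-0.89 to -0.56) for Elavl2. The sign of the first 4 flipped with total counts, which gave -0.87 for Dazl, -0.85 for Ddx4, -0.16 for Nanos3 and -0.70 for Dnd1. Nanos2 was the 1 of 6 members past 2-fold there, with 9.52% of all genes at least 2-fold higher and 4.34% at least 2-fold lower (13.9% in all).

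**Figure D2:**
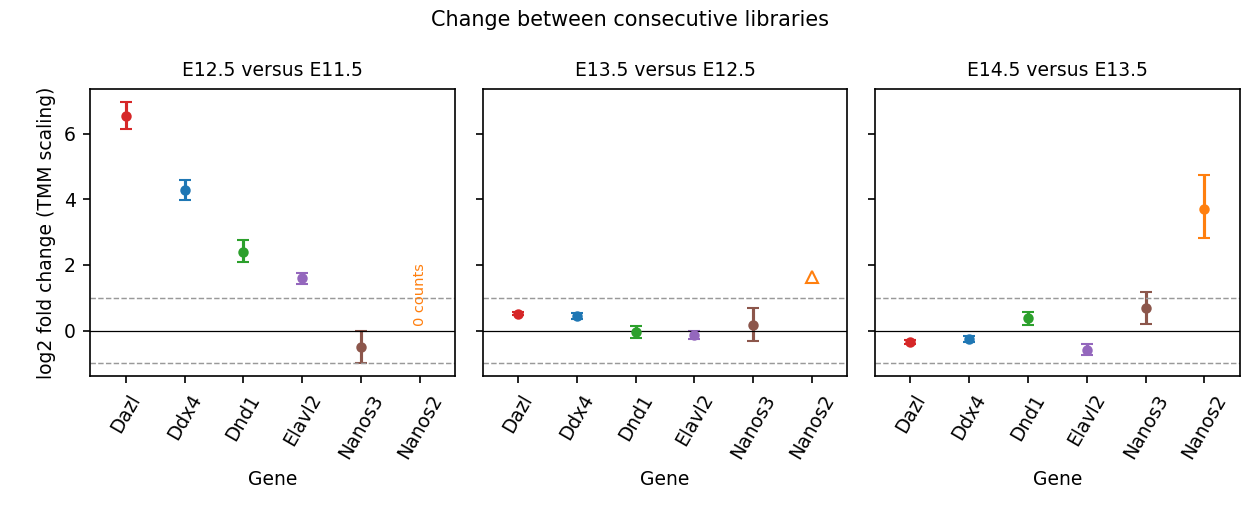
Log2 fold change of each member between consecutive libraries, later against earlier, after TMM scaling; bars are exact 95% counting intervals, dashed lines mark 2-fold, and the open triangle is the fold over the limit of 3 counts. 4 members lie above the upper line in E12.5 versus E11.5 and Nanos2 alone does so in the other 2 comparisons.

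The E14.5 values of the members depended on how that library was scaled. With total counts, E14.5 versus E13.5 gave 1 member at least 2-fold higher (Nanos2) and 3 at least 2-fold lower (Dazl, Ddx4 and Elavl2), when 62.0% of all genes were past 2-fold. With the deposited TPM it was 1 higher and 4 lower, with Dnd1 as the fourth, and 88.6% of all genes past 2-fold. The deposited TPM of Dazl were 0.676, 77.3, 121 and 30.9 from E11.5 to E14.5, and those of Ddx4 1.15, 27.2, 40.5 and 11.02. Nanos2, Nanos3 and Dnd1 lay above the median gene and Dazl, Ddx4 and Elavl2 below it. A change of scaling moves all genes by nearly the same amount. The side of each member is thus the same under all 7 scalings by construction, which is no check of it. The sign itself flipped for Nanos3 and Dnd1: they gave 0.70 and 0.37 with TMM, -0.36 and -0.69 with total counts, and -0.91 and -1.25 with the deposited TPM. Nanos2 was higher at E14.5 under every scaling, with a smallest log2 fold change of 2.07 from the deposited TPM.

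**Figure D3:**
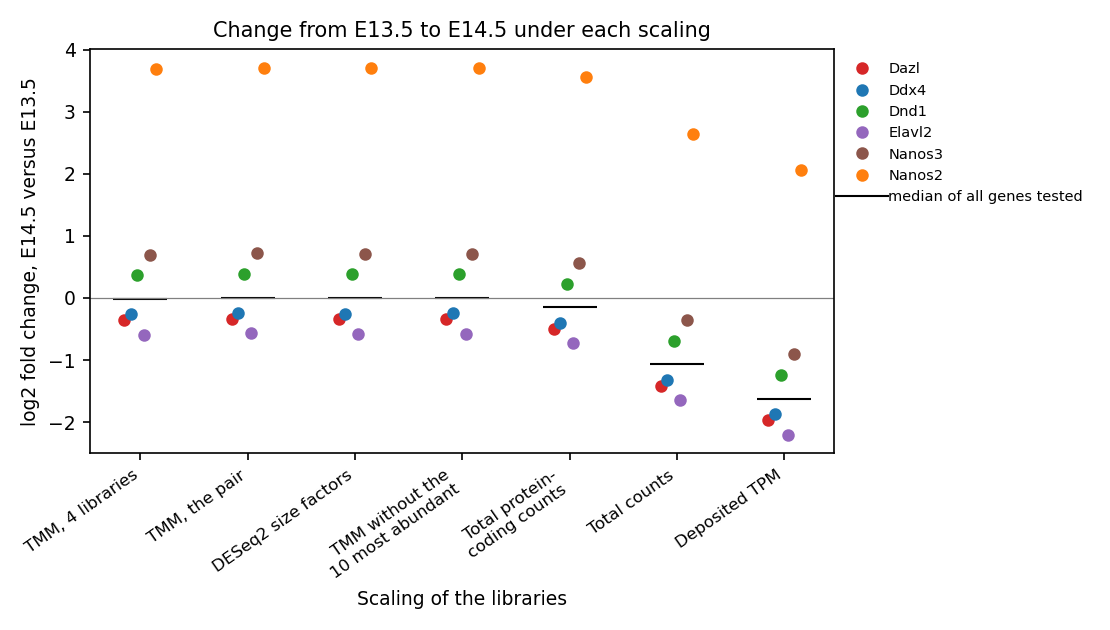
Log2 fold change of each member in E14.5 versus E13.5 under 7 scalings of the libraries, with the median of all genes compared as a black bar. The median gene lies at -0.01 with TMM, -1.07 with total counts and -1.63 with the deposited TPM, and the members move with it: Nanos3 and Dnd1 change sign.

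A ratio within a library does not depend on scaling, so each member was set against Ddx4 in reads per kilobase. The ratio of Dazl to Ddx4 was 0.588 (0.412 to 0.830) at E11.5, then 2.84, 2.99 and 2.80, and its E12.5 and E14.5 intervals overlapped. Dazl and Ddx4 were thus in a nearly fixed proportion from E12.5 on, with Dazl the more abundant. Dnd1 went the other way, from 2.40 at E11.5 to 0.656, 0.470 and 0.728. Elavl2 had a lower ratio in each later library, at 2.04, 0.318, 0.213 and 0.169. Nanos3 had 1.49, 0.0542, 0.0450 and 0.0877. Nanos2 was below 0.0817 at E11.5 and below 0.00459 at E12.5, and had 0.0107 at E13.5 and 0.168 at E14.5. Of Dazl, Nanos3, Dnd1 and Elavl2, 2 had a lower ratio to Ddx4 at E14.5 than at E12.5, Dazl within counting error and Elavl2 beyond it.

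The members were also set against the summed level of the 12 germ cell markers, which are transcription factors and other proteins of undifferentiated germ cells plus the receptor gene Kit (also expressed by other cells). Dazl was 0.0110 of that sum in the first library and 0.165, 0.290 and 0.299 in the later ones. Ddx4 was 0.0187, 0.0580, 0.0968 and 0.107. For both the first step of this ratio was the largest, and the intervals of E13.5 and E14.5 overlapped. Dnd1 stood at 0.0449 (0.0360 to 0.0553) and 0.0380 (0.0345 to 0.0418) at E11.5 and E12.5, with overlapping intervals, then 0.0455 and 0.0778. Elavl2 was 0.0382 at E11.5 and between 0.0181 and 0.0206 afterwards. Nanos3 was 0.0278, 0.00314, 0.00436 and 0.00938, and Nanos2 was 0.00104 at E13.5 and 0.0180 at E14.5. The sum of the markers was 39.9, 250, 203 and 154 TMM-scaled RPKM. At E12.5, 11 of the 12 markers were at least 2-fold higher than at E11.5 (median log2 fold change 2.73), with Kit the exception at 0.63. Over all genes, 9.47% were at least 2-fold higher in that step. At E14.5, 7 of 12 were at least 2-fold lower than at E12.5 with TMM and 11 of 12 with total counts, with Tfap2c lowest at -2.58 with TMM. Over all genes, 4.34% were at least 2-fold lower in that comparison with TMM, and 57.4% were past 2-fold with total counts.

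**Figure D4:**
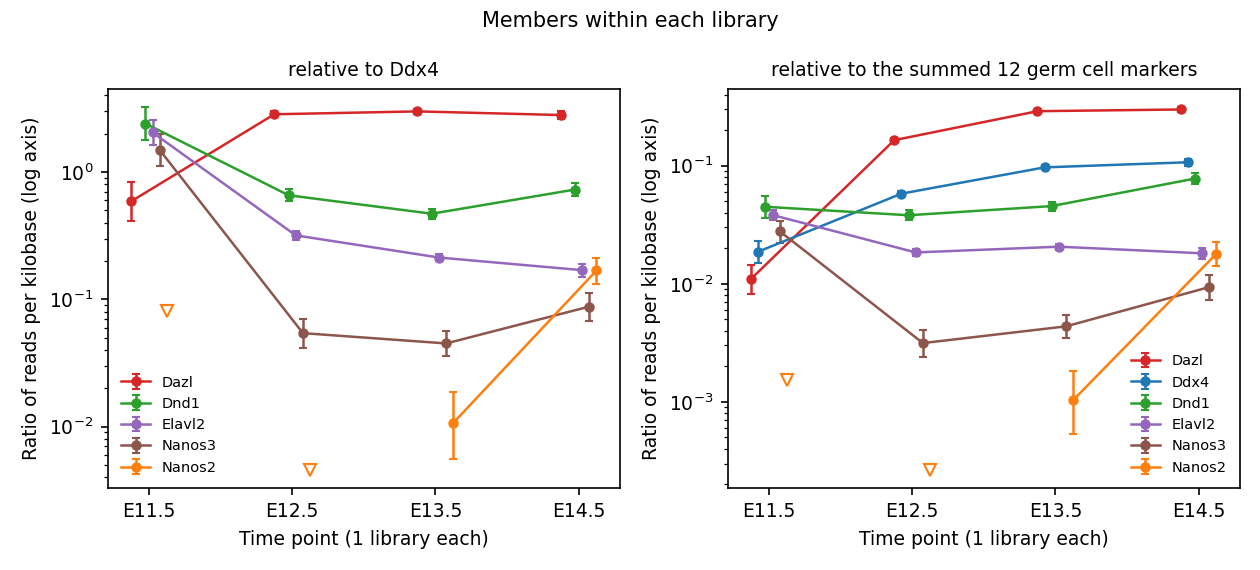
Reads per kilobase of each member divided by those of Ddx4 (left) or by the sum of the 12 germ cell markers (right), by library on a log axis, with exact 95% counting intervals and open triangles as upper limits for Nanos2. Dazl relative to Ddx4 goes from 0.588 to 2.84 and then stays level, and Dazl relative to the markers goes from 0.0110 to 0.165 in the same step.

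The machinery that the members are known to work with gave no gene past 2-fold with TMM. The list of Pumilio proteins and CCR4-NOT subunits has 13 genes, and 0 of 13 were past 2-fold in each of the 4 comparisons. Its median log2 fold changes were -0.06, -0.05, -0.09 and -0.17 with TMM (the 3 consecutive steps, then E14.5 versus E12.5). Cnot1, the scaffold of the deadenylase, had the most counts, at 15817, 17125, 19852 and 7527. The 9 genes of decapping and P bodies, the granules where mRNAs are held and degraded, also gave 0 of 9 in each comparison, including Ddx6, a helicase of those granules, with 14214, 11775, 14563 and 6502 counts. Over all genes with TMM, 9.47% were at least 2-fold higher and 9.59% lower at E12.5 than at E11.5. In the other comparisons, in the same order, 6.51%, 10.4% and 13.9% were past 2-fold. A count of 0 in lists this short is near that background. With total counts, 12 of 13 and 8 of 9 listed genes were at least 2-fold lower in E14.5 versus E13.5. The median gene was at -1.07 there and 62.0% of all genes were past 2-fold, so these counts mostly go with the scaling.

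Among 11 relatives of the members, 10 had enough reads. Boll, the ancestral gene of the Dazl family, had 11, 27, 96 and 81 counts and log2 fold changes of 1.41, 1.49 and, short of 2-fold, 0.83 with TMM. Rbm46, which encodes a germ cell RNA-binding protein, had 142, 301, 535 and 235 counts and a first step of 1.21. The neuronal Hu genes Elavl3 and Elavl4 went opposite to Elavl2, with 109 and 312 counts at E11.5 and 16 and 62 at E12.5, at log2 fold changes of -2.63 and -2.20. Elavl3 was also past 2-fold in E14.5 versus E13.5, at 1.47 (0.32 to 2.70), from 12 to 16 counts. Counting error alone leaves that place unsecured. Thus 2 of 10 were at least 2-fold higher and 2 of 10 at least 2-fold lower at E12.5, and 1 of 10 was higher in each other comparison, Elavl3 in E14.5 versus E13.5 and Boll in the others. With total counts, 0 were higher and 7 lower in E14.5 versus E13.5, and 1 higher and 7 lower in E14.5 versus E12.5. Over all genes, 62.0% and 57.4% were past 2-fold there with total counts. With TMM, 9.47% of all genes were higher and 9.59% lower at E12.5, and 3.83% to 9.52% were higher in the other comparisons. Elavl1, the Hu gene expressed in all cells, had 5703, 5442, 5928 and 2553 counts and a first step of 0.06.

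Of 20 other germ cell RNA regulators, 19 had enough reads in the first comparison and 11 of 19 were at least 2-fold higher at E12.5 (median log2 fold change 1.52). Mael, a piRNA pathway gene, had 4 counts at E11.5 and 207 at E12.5, a log2 fold change of 5.78. Stk31 gave 4.95, Mov10l1, the piRNA helicase, 4.79, and Cpeb1, a regulator of poly(A) tail length, 4.43. None was at least 2-fold lower in any comparison with TMM. At E13.5, 2 of 20 were at least 2-fold higher, Meioc (listed as Gm1564) at 3.86 (27 to 496 counts), whose product prolongs meiotic prophase, and Adad1 at 1.47. At E14.5, 7 of 20 were at least 2-fold higher than at E13.5 with TMM, and 2 higher and 4 lower with total counts. Gtsf1, a piRNA pathway gene, led that step with 5 and 50 counts, a log2 fold change of 4.35, and Tdrd9 gave 2.26. Against E12.5, 9 of 20 were at least 2-fold higher at E14.5 with TMM, and 5 higher and 3 lower with total counts. Over all genes with TMM, 9.47%, 3.83% and 7.12% were at least 2-fold higher in the consecutive steps, and 9.52% in E14.5 versus E12.5. With total counts, 62.0% were past 2-fold in E14.5 versus E13.5 and 57.4% in E14.5 versus E12.5.

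Of 11 genes whose mRNAs are known targets of DAZL, NANOS2 or DND1, 10 had enough reads in the first comparison. At E12.5, 4 of 10 were at least 2-fold higher than at E11.5, namely Tex19.1 (3.81), Sycp3 (3.56), Sycp1 (3.23) and Sox2 (2.20), and 1 was lower, Taf7l (-1.997). At E13.5, 4 of 11 were at least 2-fold higher than at E12.5, with Sycp1 at 2.19, Taf7l at 2.15 and Sycp3 at 1.28 after Stra8, the meiotic gatekeeper and a known target of repression by NANOS2. Stra8 had 0, 3, 430 and 272 counts, and its log2 fold change from 3 to 430 counts was 6.78 (5.27 to 9.11). At E14.5, 3 of 11 were at least 2-fold higher than at E13.5 with TMM, namely Taf7l at 2.48, Sycp3 at 1.78 and Sycp1 at 1.04, and 1 higher and 6 lower with total counts. In E14.5 versus E12.5, 4 of 11 were at least 2-fold higher with TMM, namely Stra8, Taf7l, Sycp1 and Sycp3. With TMM 1 was lower, Sox2 at -1.08, while total counts gave 4 higher and 4 lower. Over all genes with TMM, 9.47%, 3.83% and 7.12% were at least 2-fold higher in the consecutive steps, and 9.52% in E14.5 versus E12.5. With total counts, 62.0% were past 2-fold in E14.5 versus E13.5 and 57.4% in E14.5 versus E12.5.

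**Figure D5:**
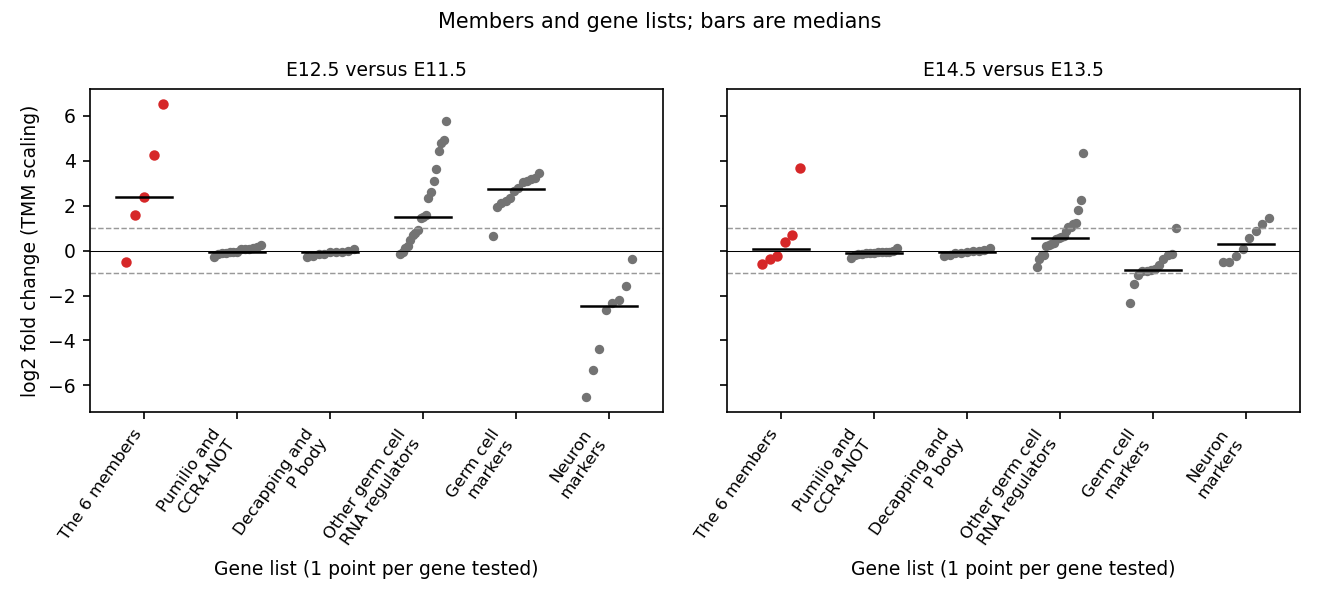
Log2 fold change (TMM scaling) of the members and of 5 gene lists, 1 point per gene with reads, in E12.5 versus E11.5 (left) and E14.5 versus E13.5 (right); bars are medians and dashed lines mark 2-fold. The Pumilio and CCR4-NOT genes and the decapping genes lie between the dashed lines in both panels, while the members have a median of 2.41 on the left. With total counts 12 of 13 and 8 of 9 would lie below the lower line on the right, with 62.0% of all genes past 2-fold.

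Markers of the other cell types of the gonad also differed between the same libraries. The 5 male germ cell markers had a summed level of 1.02, 17.4, 13.8 and 12.7 TMM-scaled RPKM. In this list Dnmt3l, like Nanos2 late, had 0, 0, 2 and 29 counts, and Piwil4 had 3, 21, 41 and 129. The others went the other way from E12.5 to E14.5, with log2 fold changes of -1.30 for Nodal, -0.81 for Lefty2 and -0.35 for Lefty1. The 8 meiotic markers summed to 8.32, 20.3, 53.8 and 75.1, with 6 of 8 at least 2-fold higher at E13.5 than at E12.5. Sertoli markers were at least 2-fold higher at E12.5 in 6 of 7, pregranulosa markers in 4 of 6 and Leydig markers in 5 of 5. Mesonephros markers were at least 2-fold lower in 4 of 6 and summed to 38.8, 7.89, 6.21 and 7.21 TMM-scaled RPKM, the mesonephros being in the E11.5 pool only. Erythroid markers gave 2 of 7 higher and 1 lower, and 0 of 4 endothelial markers were past 2-fold. Over all genes, 9.47% were at least 2-fold higher and 9.59% lower at E12.5 than at E11.5, and 3.83% higher at E13.5 than at E12.5. What share of the first step of the members goes with the changed composition of the tissue was not tested.

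The genes with the most similar profile over the 4 libraries were found by the root mean square difference of centred log2 levels among 14070 genes. For Dazl these were Ptgds (0.208), Defb19, Tuba3a, Mybpc3 and Amh, of which Ptgds and Amh are in the Sertoli list. For Ddx4 they were Cyct (0.101), Myh8, Gatm, Cpeb1 and Cst9, with Cpeb1 among the germ cell RNA regulators and Cst9 in the Sertoli list. For Nanos2 the nearest was Gm884 at 0.495, then Shcbp1l, Zfp541, Rad21l and Ankrd31. Its 0 counts at E11.5 and E12.5 were set to the floor of 3 counts. The genes searched had at least 100 counts in a library, above the highest count of Nanos2, 75. Whether Nanos2 lacks a close neighbour thus cannot be told from this distance. Nanos3 was nearest to E530011L22Rik (0.0341), Tsc22d3, Cyb5rl, Snord2 and Myocd. Dnd1 was nearest to Chchd10 (0.0474), Pak3, Serpine2 and Socs2, and Elavl2 to Syt9 (0.0336), 2610305D13Rik, Alg13, Lgals7 and 1700106J16Rik. Between members, Dnd1 and Elavl2 were the closest pair at 0.663, while Dazl and Ddx4 were 0.992 apart and Dazl and Nanos3 3.02 apart. With 4 points per profile, genes of different cell types can have the same one.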

How the data were processed

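Pools of XX and XY mouse gonads gave 4 stranded libraries of total RNA, 1 per time point, after rRNA depletion with probes and RNase H. Reads were aligned to mm10 with STAR, deduplicated by UMI and counted with featureCounts in the Bio-Rad SeqSense toolkit; tool versions and annotation release are not given in the sources used here. The counts per gene were used as deposited. The deposited RPKM and TPM values were made by the authors from these counts and exon lengths, and the TPM were used only for comparison. Members and gene lists were chosen with earlier results of these data known. TMM factors came from edgeR 4.0.16 over all 4 libraries. Log2 fold changes used a prior count of 0.125 and Clopper-Pearson 95% intervals. A count of 0 was set to a floor of 3 counts, which is 0.0945 to 0.117 CPM, and no fold is given where both libraries were at or below it. Genes compared passed filterByExpr and had more than 3 counts in a library of the pair. The scripts were tested on simulated data. Named genes are the 6 members, the 5 nearest profiles of each, and list genes with the largest or smallest changes past 2-fold. Cnot1, Ddx6, Elavl1, Wdr55, Tdrd9, Piwil4, Nodal, Lefty1 and Lefty2 were chosen after their values were seen. Lists cover Pumilio and CCR4-NOT, decapping and P bodies, relatives, other germ cell RNA regulators, known targets and 10 cell types. Some single genes of the lists and nearest profiles are not reported here. Alternatives were other scalings (including DESeq2 1.42.0 size factors), prior counts, filters, limits and preset dispersions, with R 4.3.3, Python 3.11.15, numpy 2.4.6, pandas 2.3.3 and scipy 1.17.1.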

Additional observations from a re-analysis of the deposited data

How the results depend on the processing

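Scaling mattered for E14.5. In E14.5 versus E13.5, 1 of 6 members was past 2-fold with TMM, 4 with total counts (3 of them lower) and 5 with the deposited TPM (4 of them lower). Over all genes the shares past 2-fold were 10.4%, 62.0% and 88.6%, so these counts are near the background. The median log2 fold change of the members was 0.06, -1.01 and -1.56. In E14.5 versus E12.5 the count was 1, 2 with total counts (57.4% of all genes past 2-fold) and, with the deposited TPM, 4 of 5, all lower (82.1% of all genes), so these shares are near or under the background, and the median was 0.26, -0.78 and -1.31. The cause was not tested. With an FDR of at most 0.05 in edgeR's exact test at a preset biological coefficient of variation of 0.4, members past 2-fold were 2 in place of 4 for E12.5 versus E11.5 and 0 in place of 1 for the steps to E13.5 and to E14.5, while 1.41%, 0.00501% and 0.156% of all genes were called. The call of Nanos2 in E13.5 versus E12.5, from 12 counts against 0, was also lost (0 members) at a coefficient of 0.2 (0.256% of all genes), with a 4-fold limit (1.24%), with at least 10 counts required in both libraries (2.86%) and with the deposited TPM (6.70%), where a library at 0 gives no ratio. At least 10 counts in both libraries also left 0 members in E14.5 versus E12.5 (8.62%). Against the germ cell markers in place of Ddx4, 1 member (Elavl2) in place of 2 had a ratio at E14.5 under that at E12.5, but within counting error. With at least 1000 counts in a library, 13 of 30 nearest genes were shared. Scaling by total counts of protein-coding genes was chosen after seeing the data and changed no count of members, though it did change counts in the gene lists. No paired analysis was possible because each time point has 1 library, and for the same reason no replicate could be left out. Depth limits Nanos2 and Nanos3 most, at 0 to 91 counts.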
